A study of Mus musculus with 4 samples.

Results

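This account covers the ion pumps and ion channels of the mouse heart as measured on printed cDNA arrays. Its members are the genes whose clones carry 1 platform symbol that begins with a name of a Na,K-ATPase, calcium ATPase, V-ATPase, potassium, sodium, calcium, chloride, transient receptor potential (TRP), ryanodine or inositol trisphosphate receptor channel family. The rule took 93 of 17664 printed features. Of these, 92 had values and 1 clone of Cacna1d, a calcium channel subunit, had none. After averaging the clones of 1 symbol, 65 genes remained of 8106 named genes in the fit, 50 of them from 1 clone and 15 from several. Every member gene had a value on all 4 arrays, so no filter on low values removed one. A further 10 clones with several symbols, 1 of them matching, were not used. The rule reads names only and used no measured value. It also takes Trpc4ap, which encodes a TRPC4-associated protein and no channel.

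The study set the hearts of 3 mice on high salt against those of 3 mice on low salt. All 6 were males of a wild-type backcross, given as N5–6 on 129Ola/C57BL/6J and as 1-renin, aged 7 to 8 weeks when the study began and 12 to 13 weeks at sampling. Every mouse, controls included, had lost 1 kidney, ate food with 0.5 mg Na per g and was given deoxycorticosterone acetate, a mineralocorticoid hormone, for 5 weeks. The high-salt group drank 1% NaCl over those 5 weeks and the low-salt group drank tap water. RNA came from the right and left ventricles with the septum, so every cell type of the ventricle contributed, and fewer cells of a type cannot be told apart from less RNA per cell. Each of the 4 arrays set 1 high-salt heart against 1 low-salt heart. Array 1 held pair 1, array 3 held pair 3, and arrays 2 and 4 held pair 2 with the dyes exchanged. Arrays 2 and 4 were averaged before any test, which left n = 3 pairs. The clones came from a set made from mouse embryos with custom additions, and no member's level could be read, since the values are ratios.

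Ion pumps spend ATP to build the gradients that channels then release. The Na,K-ATPase moves sodium out of the cell and potassium in, with an alpha subunit that does the transport and a beta subunit that carries it to the membrane. In heart muscle, calcium enters through voltage-gated calcium channels, leaves the sarcoplasmic reticulum through ryanodine receptors and is returned there by the calcium ATPase SERCA2. The V-ATPase is a proton pump that acidifies lysosomes and endosomes, with a membrane part called V0 and an ATP-splitting part called V1. Potassium channels repolarise the heart cell after each beat. Chloride and TRP channels act in many cell types, the latter often as sensors of stretch, lipids or ions.

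Each value is a log2 ratio, and a positive one is read as more transcript in high salt. The array titles make this direction likely without settling it, and base 2 is assumed. The high-salt RNA was labelled with Cy3 on arrays 1 and 2 and with Cy5 on arrays 3 and 4. Over the 8106 genes, the arrays of 1 dye orientation correlated at 0.57 (arrays 1 and 2) and 0.47 (arrays 3 and 4), while the 4 correlations between orientations lay between -0.33 and -0.073 (Pearson's r, across genes, which are not independent). The counts, the medians and most genes named are therefore also given with the signs of arrays 1 and 2 turned, called the turned reading. It holds if the table had not been aligned for the dye and its ratios are Cy5 over Cy3. Were unaligned ratios Cy3 over Cy5, every sign of the turned reading would be the opposite. The arrays' medians over all features lay between -0.0062 and 0.01, so no array was shifted as a whole.

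No member passed the test for a difference between high and low salt. With limma over all 8106 genes, 0 of 65 members passed an adjusted p of 0.05, against 0% of all genes. The smallest adjusted p among members was 0.699, for Clcn3. At an unadjusted p under 0.05, limma put 2 members on the higher side, against 2.81% of all genes, and 2 on the lower side, against 2.63%. These were Atp1b1 and Atp6v0a1 above 0, and Atp6v0b and Clcn3 below it. In all, 4 of 65 members (6.15%) lay there, close to the 5.44% of all genes. In the turned reading, 0 members passed the adjusted threshold (0% of all genes), and the smallest adjusted p was 0.081, for Clcn7. An unadjusted p under 0.05 then held for 13 members (20%), against 20.8% of all genes. Of these, 4 were above 0 (6.97% of all genes) and 9 below it (13.8%). Neither reading set the members' share of small p-values apart from that of the other genes.

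The members' ratios were small. The mean log2 ratio lay within 0.1 of 0 for 41 of 65 members (63.1%), against 63.4% of all genes. It lay further than 0.5 from 0 for 1 member, the chloride channel gene Clcn1. The mean was above 0 for 45 of 65 members (69.2%), against 49.8% of all genes, and with arrays 1 and 2 turned for 36 (55.4%), against 46.7%. The median over members was 0.021, beside -0.00026 over all genes, so the excess of positive signs came with ratios near 0. The value kept 1 sign on all 4 arrays in 14 members (21.5%), against 14.8% of all genes. Of these, 9 were positive (7.01% of all genes) and 5 negative (7.75%). The turned reading left 17 members (26.2%) with 1 sign, against 31.3% of all genes, 8 positive (12.7% of all genes) and 9 negative (18.7%).

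The arrays of pair 2 measure the same 2 hearts, so their gap holds the error of array and dye without that between mice. The median gap between arrays 2 and 4 was 0.15 for members and 0.20 for all genes. The median range over the 4 arrays was 0.28 for members and 0.39 for all genes. Most member means were thus smaller than the median gap between repeat arrays of the same mice. A mean over pairs and a gap between 2 single arrays are unlike measures, since averaging lowers the error. In the turned reading the gap would also hold the salt difference.

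Of the Na,K-ATPase, 3 beta subunit genes were measured, and no alpha subunit was analysed here. Atp1b1, the beta subunit common in heart and kidney, was above 0 on every array. Its log2 ratios were 0.31 on array 1, 0.28 on array 2, 0.10 on array 3 and 0.34 on array 4. Pairs 1 and 2 were at 0.31 and 0.31, and pair 3 was the lowest. The mean was 0.24 ± 0.12 (SD, n = 3 pairs), a 1.18-fold ratio, with an adjusted p of 0.863 by limma. The turned reading gave a mean of -0.060 ± 0.22, so the positive mean rests on the reading of the dyes.

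Atp1b1 was printed as 4 clones, numbered here in the platform's order of features, and these differed in size. Clone 4 had log2 ratios of 0.58, 0.45, 0.22 and 0.68 on arrays 1 to 4, with a mean of 0.45 ± 0.20 (SD, n = 3 pairs). Clone 3 had 0.23, 0.40, 0.19 and 0.56, with a mean of 0.30 ± 0.16. Both clones were positive on every array and lowest in pair 3. Clone 2 had 0.34 and 0.39 on arrays 1 and 2 but 0.040 and 0.045 on arrays 3 and 4, with a mean of 0.20 ± 0.15, so its size went with the dye. Clone 1 had 0.11, -0.10, -0.028 and 0.089, with a mean of 0.024 ± 0.072, and its values lay on either side of 0. The means of the 4 clones spanned 0.43, more than the gene's own mean. Which part of the transcript each clone covers was not analysed here. In the turned reading clones 2 and 4 were at -0.16 and -0.081, and clone 3 was at 0.011.

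**Figure D1:**
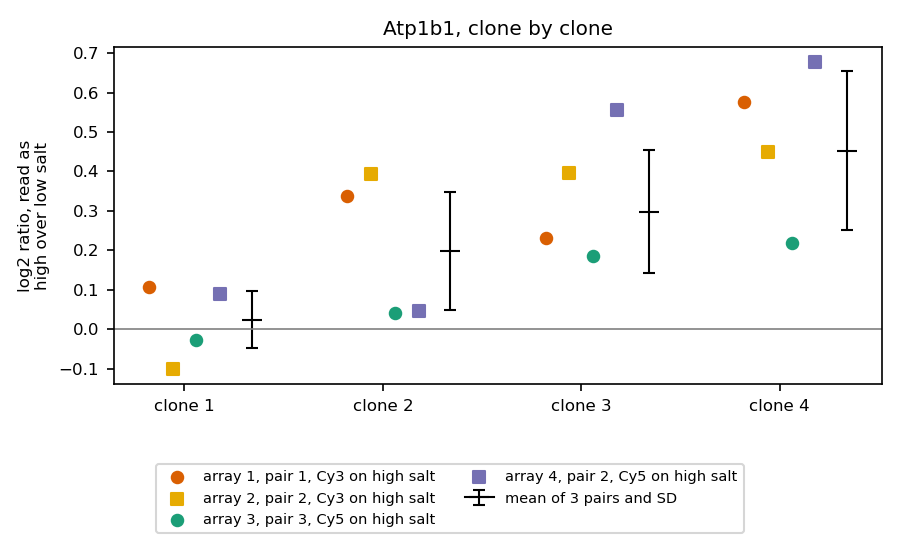
Log2 ratios (vertical axis, read as high over low salt) of the 4 Atp1b1 clones on the 4 arrays, with points coloured by array and bars for the mean of 3 pairs and its SD. Clones 3 and 4 lie above 0 on all arrays, clone 2 is near 0 on arrays 3 and 4, and clone 1 lies about 0.

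Corticosteroid receptors bind DNA at pairs of the half-site TGTTCT, which is why the start of Atp1b1 is shown. The 250 bases before its transcription start, chr1:164458356-164458605 on the minus strand of RefSeq GRCm38.p6, were searched on both strands for TGTTCT and for the E-box CACGTG. Neither run of letters was present there, which says nothing of any factor's action there or elsewhere.
Atp1b1: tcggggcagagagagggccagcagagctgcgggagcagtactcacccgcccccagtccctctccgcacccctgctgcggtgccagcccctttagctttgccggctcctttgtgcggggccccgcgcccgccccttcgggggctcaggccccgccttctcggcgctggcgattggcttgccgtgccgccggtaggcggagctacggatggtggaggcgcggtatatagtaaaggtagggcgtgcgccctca
Promoters, taken as 250 bases before to 50 after the start, were found in RefSeq for 51 of 65 members, 71 promoters in all. TGTTCT was in 8 of these 71 (11.3%), against 19% of 32851 promoters of the same length.

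The other beta subunits lay closer to 0. Atp1b2, the beta subunit known from glia and neurons, had log2 ratios of -0.12, -0.19, 0.18 and -0.27 on arrays 1 to 4, with a mean of -0.055 ± 0.21 (SD, n = 3 pairs). Atp1b3, a widely expressed beta subunit, had -0.12, -0.26, 0.16 and 0.46, with a mean of 0.048 ± 0.15. In Atp1b3 the sign followed the dye, and with arrays 1 and 2 turned its mean was 0.21. The pair values of Atp1b1 overlapped those of Atp1b2 and Atp1b3, since pair 3 was at 0.10 for Atp1b1, 0.18 for Atp1b2 and 0.16 for Atp1b3.

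Of the calcium ATPases, 5 genes were measured, 3 with means above 0 and 2 below. Atp2a2, which encodes SERCA2, had log2 ratios of -0.40, -0.045, -0.0092 and -0.058 on arrays 1 to 4. It was below 0 on every array, but array 1 stood far from the others. The mean was -0.15 ± 0.21 (SD, n = 3 pairs), with an adjusted p of 1 by limma. Without pair 1 it was -0.030, and with arrays 1 and 2 turned it was 0.13. Of the 4 Atp2a2 clones, 1 was at -1.21 and another at -0.64 on array 1, while the other two were at 0.059 and 0.21 there. The clone means ran from -0.40 to -0.0098, so the low value of array 1 came from a part of the clones.

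Atp2a3, the SERCA3 gene of non-muscle cells, had log2 ratios of -0.19, -0.018, -0.43 and 0.034, with a mean of -0.20 ± 0.22. Pairs 1 and 3 were low and pair 2 was near 0, and without pair 3 the mean was -0.091. Atp2b1, a calcium pump of the plasma membrane, had -0.099, -0.28, 0.53 and -0.12, with a mean of 0.076 ± 0.40. Its positive mean came from array 3 alone, and without pair 3 it was -0.15. Atp2c1 and Atp2c2, calcium and manganese pumps of the secretory pathway, had means of 0.013 ± 0.042 and 0.011 ± 0.12. Their ranges over the arrays were -0.049 to 0.13 and -0.13 to 0.15.

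Of the calcium release channels opposite these pumps, 2 genes were measured, both with means above 0. Ryr2, the ryanodine receptor of heart muscle, had log2 ratios of -0.052, -0.15, 0.22 and 0.13 on arrays 1 to 4. The sign followed the dye, and the mean was 0.054 ± 0.14 (SD, n = 3 pairs), or 0.14 with arrays 1 and 2 turned. Itpr2, an inositol trisphosphate receptor, had 0.23, -0.047, 0.27 and 0.080, with a mean of 0.17 ± 0.14 and an adjusted p of 0.970 by limma. It was above 0 on all arrays but array 2, and its turned mean was 0.035.

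The V-ATPase gave 12 genes, 6 of V0, 5 of V1 and 1 accessory subunit. The mean was above 0 for 9 and below 0 for 3, and the median was 0.079. The turned reading put 6 above and 6 below 0, with a median of -0.0097, beside -0.011 over all genes. Of the 6 V0 genes, 4 kept 1 sign on all arrays, 3 positive and 1 negative, so subunits of the same membrane part differed in sign. Of the 5 V1 genes, 1 kept 1 sign.

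Atp6v0a1, an a subunit of V0, had log2 ratios of 0.29, 0.24, 0.17 and 0.13 on arrays 1 to 4, and its mean was 0.22 ± 0.067 (SD, n = 3 pairs). Both of its clones were positive, with means of 0.17 and 0.27. Atp6v0e, the e subunit, had 0.084, 0.17, 0.26 and 0.024, with a mean of 0.15 ± 0.10. Atp6v0d1, the d subunit, had 0.17, 0.091, 0.024 and 0.078, with a mean of 0.094 ± 0.075. These 3 genes lay above 0 on every array. Atp6v0b, a proteolipid of the V0 ring, lay below 0 on every array, at -0.19, -0.37, -0.18 and -0.083. Its mean was -0.20 ± 0.025, and the closeness of its pairs came after averaging arrays 2 and 4, which were further apart than the pairs. Limma gave Atp6v0a1 and Atp6v0b an adjusted p of 0.863 each. Turned, the means were -0.058 for Atp6v0a1, -0.052 for Atp6v0d1, 0.036 for Atp6v0e and 0.052 for Atp6v0b.

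In V1, Atp6v1e1, a stalk subunit, was below 0 on every array, at -0.45, -0.15, -0.013 and -0.11. The mean was -0.20 ± 0.23 (SD, n = 3 pairs), with array 1 the lowest, and 0.15 with arrays 1 and 2 turned. Atp6v1b2, which takes part in ATP binding, had 0.80 and 0.21 on arrays 1 and 2 and -0.52 and -0.099 on arrays 3 and 4. All 3 of its clones were highest on array 1 and lowest on array 3. Their means ran from -0.019 to 0.28. Atp6v1a, the catalytic subunit, had 4 clones with means from -0.14 to 0.16 and a gene mean of 0.065 ± 0.14. Atp6v0a4, an a subunit best known from kidney, had 2 clones with means of -0.055 and 0.096. In these 3 genes the clones differed in sign.

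**Figure D2:**
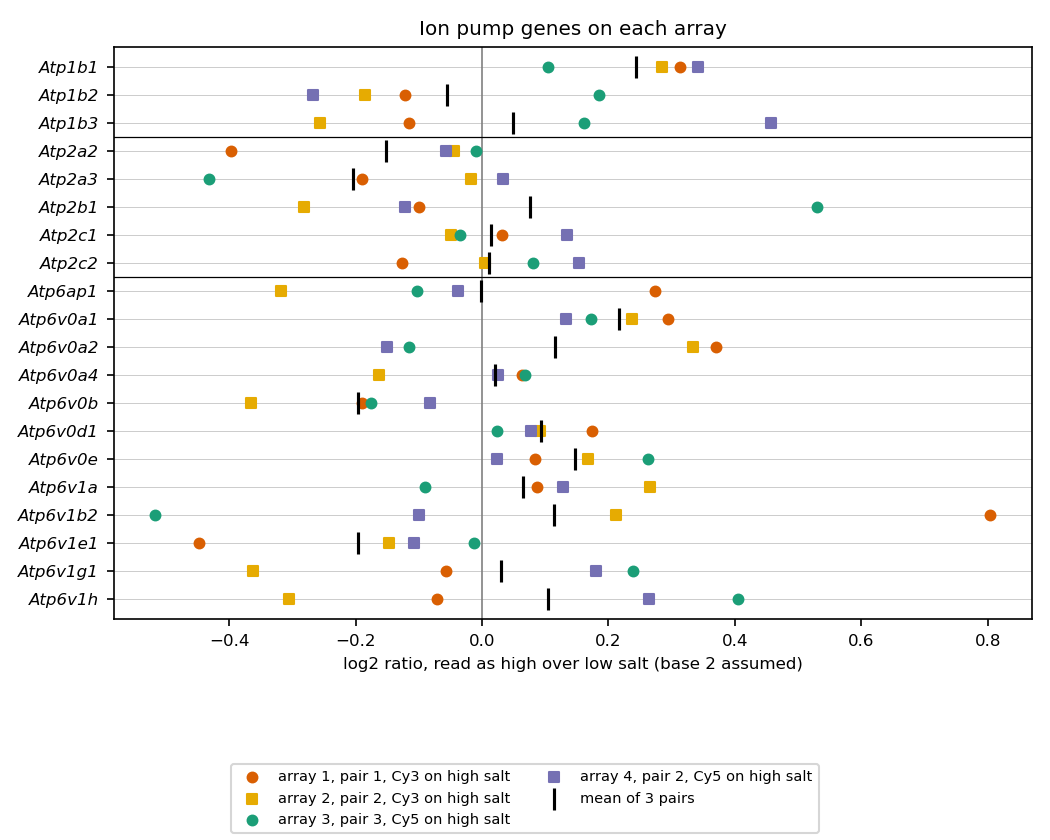
Log2 ratios (positive read as higher in high salt) of the Na,K-ATPase, calcium ATPase and V-ATPase genes on the 4 arrays, with the mean of 3 pairs. Atp1b1, Atp6v0a1, Atp6v0d1 and Atp6v0e lie above 0 on all arrays, Atp2a2, Atp6v0b and Atp6v1e1 below 0 on all arrays.

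Many lysosomal genes carry an E-box near their start, read by factors of the TFEB family, so the promoters of the V-ATPase genes were searched for CACGTG, which reads the same on both strands. It was in 4 of the 8 V-ATPase promoters found, in 10 of 71 member promoters (14.1%) and in 7.15% of 32851 promoters of the same length. The 4 V-ATPase sites are shown with those of Clcn7, a lysosomal chloride transporter, and Trpm7, a channel with a kinase domain, as windows of 30 bases from RefSeq GRCm38.p6 with the E-box in capitals. A match is a description of these letters and does not show a factor bound there.
Atp6v0b, chr4:117887348-117887377, minus strand: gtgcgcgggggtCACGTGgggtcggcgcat
Atp6v0d1, chr8:105566050-105566079, minus strand: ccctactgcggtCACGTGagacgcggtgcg
Atp6v0e, chr17:26676387-26676416, plus strand: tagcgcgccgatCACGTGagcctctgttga
Atp6v1a, chr16:44139373-44139402, minus strand: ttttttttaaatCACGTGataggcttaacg
Clcn7, chr17:25133364-25133393, plus strand: tccgtcgtcagtCACGTGggcaccgatgat
Trpm7, chr2:126876269-126876298, minus strand: aagcgcgcccttCACGTGacacgccctccg
With the first transcribed base as 1 and the base before it as -1, the E-box shown began at -36 in Atp6v0b, -3 in Atp6v0d1, 4 in Atp6v0e, -131 in Atp6v1a, -15 in Clcn7 and -25 in Trpm7. Atp6v0b, Clcn7 and Trpm7 each held 2 of them. The 4 V-ATPase genes with the E-box did not share a sign, with means of -0.20, 0.094, 0.15 and 0.065.

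Other lysosomal genes, a list of 40 hydrolases, membrane proteins and regulators beside the V-ATPase, gave 29 with values. Of these, 19 had means above 0 and 10 below, with a median of 0.031, and limma called 0 at an adjusted p under 0.05. At an unadjusted p under 0.05, 0 of the 29 lay in either direction, against 5.44% of all genes. Turned, 10 were above and 19 below 0, with a median of -0.099, and 10 of the 29 (34.5%) lay below 0 at an unadjusted p under 0.05, against 13.8% of all genes. The lysosomal list thus moved to the other side of 0 with the reading. The turned V-ATPase median of -0.0097 lay near that of all genes, at -0.011, so it did not share the size of that move.

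Potassium channels were the largest family, with 23 genes, 15 above 0 and 8 below, and a median of 0.010. Their means lay within 0.1 of 0 in 19 of 23. Kcnmb1, the accessory beta subunit of the calcium-activated BK channel of smooth muscle, had log2 ratios of 0.083, 0.24, 0.32 and 0.055 on arrays 1 to 4. Its mean was 0.18 ± 0.12 (SD, n = 3 pairs), with an adjusted p of 0.933 by limma. Kcnma1, which encodes the pore of the same channel, had a mean of 0.029 ± 0.046. Kcnk6, a background channel gene, had 0.12, 0.25, 0.092 and 0.15, with a mean of 0.14 ± 0.057. Kcnh8, of the ether-a-go-go family, and Kcns3, a silent subunit that modifies other voltage-gated channels, also kept a positive sign on all arrays, with means of 0.092 ± 0.048 and 0.092 ± 0.092. No potassium channel gene was below 0 on every array. The turned means were 0.048 for Kcnmb1, -0.023 for Kcnk6, 0.043 for Kcnh8 and 0.045 for Kcns3.

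The subunits of the transient outward current of the ventricle, Kcnd2 and Kcnd3, were named after their values were seen. Kcnd2 had log2 ratios of -0.67, -0.28, 0.070 and -0.27 on arrays 1 to 4. Its mean of -0.29 ± 0.37 (SD, n = 3 pairs) was the lowest of the potassium channel genes, with an adjusted p of 1 by limma. Pairs 1 and 2 were below 0 and pair 3 above it. The means of its 3 clones lay between -0.34 and -0.21. Kcnd3 had -0.31, -0.32, 0.24 and 0.023, with a sign that followed the dye and a mean of -0.073 ± 0.28. In the turned reading, Kcnd2 and Kcnd3 were at 0.25 and 0.24. Kcnq1, the pore of the slow delayed rectifier, had 4 clones that differed in sign, from -0.047 to 0.12, and a gene mean of 0.024 ± 0.074. The 2 clones of Kcnh1, an ether-a-go-go channel, also differed in sign, at -0.013 and 0.028.

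Of the sodium channels, 2 genes were measured, and neither is the pore of the heart's main sodium channel. Scnn1b, the beta subunit of the epithelial sodium channel that mineralocorticoids act on in the kidney, had log2 ratios of -0.050, 0.040, -0.63 and 0.012 on arrays 1 to 4. Only array 3 stood away from 0. The mean was -0.22 ± 0.36 (SD, n = 3 pairs), and -0.012 without pair 3. Scn2b, an accessory beta subunit of voltage-gated sodium channels, had a mean of 0.0059 ± 0.029 and ranged from -0.036 to 0.073.

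Calcium channels gave 5 genes, 1 above 0 and 4 below, with a median of -0.048. Cacnb2, the beta subunit of the L-type channel in heart, was below 0 on every array, at -0.31, -0.071, -0.18 and -0.052. The mean was -0.18 ± 0.12 (SD, n = 3 pairs), with an adjusted p of 0.933 by limma, and 0.047 with arrays 1 and 2 turned. Its 2 clones had means of -0.25 and -0.12. Neither kept 1 sign, with clone 1 at 0.027 on array 4 and clone 2 at 0.19 on array 2, so the shared sign came after averaging. Cacna1d, a pore subunit of L-type channels, had 0.10, 0.093, -0.63 and -0.0053, with a mean of -0.16 ± 0.41 that was 0.073 without pair 3. Its 2 clones with values disagreed, at -0.45 and 0.12. Cacng5, a gamma subunit gene, had a mean of 0.054 ± 0.044, and Cacna2d3, an alpha2delta subunit gene with 2 clones that differed in sign, -0.020 ± 0.067.

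Chloride channels and transporters gave 6 genes, 5 above 0 and 1 below, with a median of 0.13, or -0.16 in the turned reading. Clcn3, a chloride and proton exchanger of endosomes, was the member with the smallest p in the whole set. Its log2 ratios were -0.34, -0.41, -0.36 and -0.21 on arrays 1 to 4. All lay below 0, and the pairs were closer to each other than the repeat arrays of pair 2. The mean was -0.34 ± 0.026 (SD, n = 3 pairs), a ratio of 0.79, with an adjusted p of 0.699 by limma. Clcn3 rested on 1 clone, and with arrays 1 and 2 turned its mean was 0.026. Clic1, an intracellular chloride channel protein, had 0.66, 1.09, -0.098 and 0.50, with a mean of 0.45 ± 0.48 and an adjusted p of 0.976 by limma. Pairs 1 and 2 were high and pair 3 was just below 0. Its turned mean was -0.35.

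Clcn1, the chloride channel of skeletal muscle, and Clic4, a relative of Clic1, were named after their values were seen. Clcn1 had log2 ratios of 0.080, -0.0031, 1.69 and 0.018 on arrays 1 to 4. Its mean of 0.59 ± 0.95 (SD, n = 3 pairs) was the highest of all members but came from array 3, and without pair 3 it was 0.044. Clic4 had 0.72, 0.48, -0.47 and 0.15, with a mean of 0.19 ± 0.61, and a turned mean of -0.45. Both Clic genes were lowest on array 3. The turned mean of Clcn1 was 0.54.

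All 7 genes with a TRP name had means above 0, with a median of 0.069, and 5 of the 7 lay within 0.1 of 0. In the turned reading, 3 were above and 4 below 0. Without Trpc4ap the median of the other 6 was 0.044. Trpm7, a magnesium- and calcium-permeable channel with a kinase domain, had log2 ratios of 0.17, 0.33, 0.017 and 0.056 on arrays 1 to 4. Its mean was 0.12 ± 0.094 (SD, n = 3 pairs), with an adjusted p of 0.995 by limma, and -0.095 with arrays 1 and 2 turned. The means of its 4 clones were all positive, between 0.045 and 0.16. Trpv2, a channel linked to stretch in muscle, had 0.37, 0.44, -0.24 and 0.016, with a mean of 0.12 ± 0.32. It was high on arrays 1 and 2 only, and its turned mean was -0.27.

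**Figure D3:**
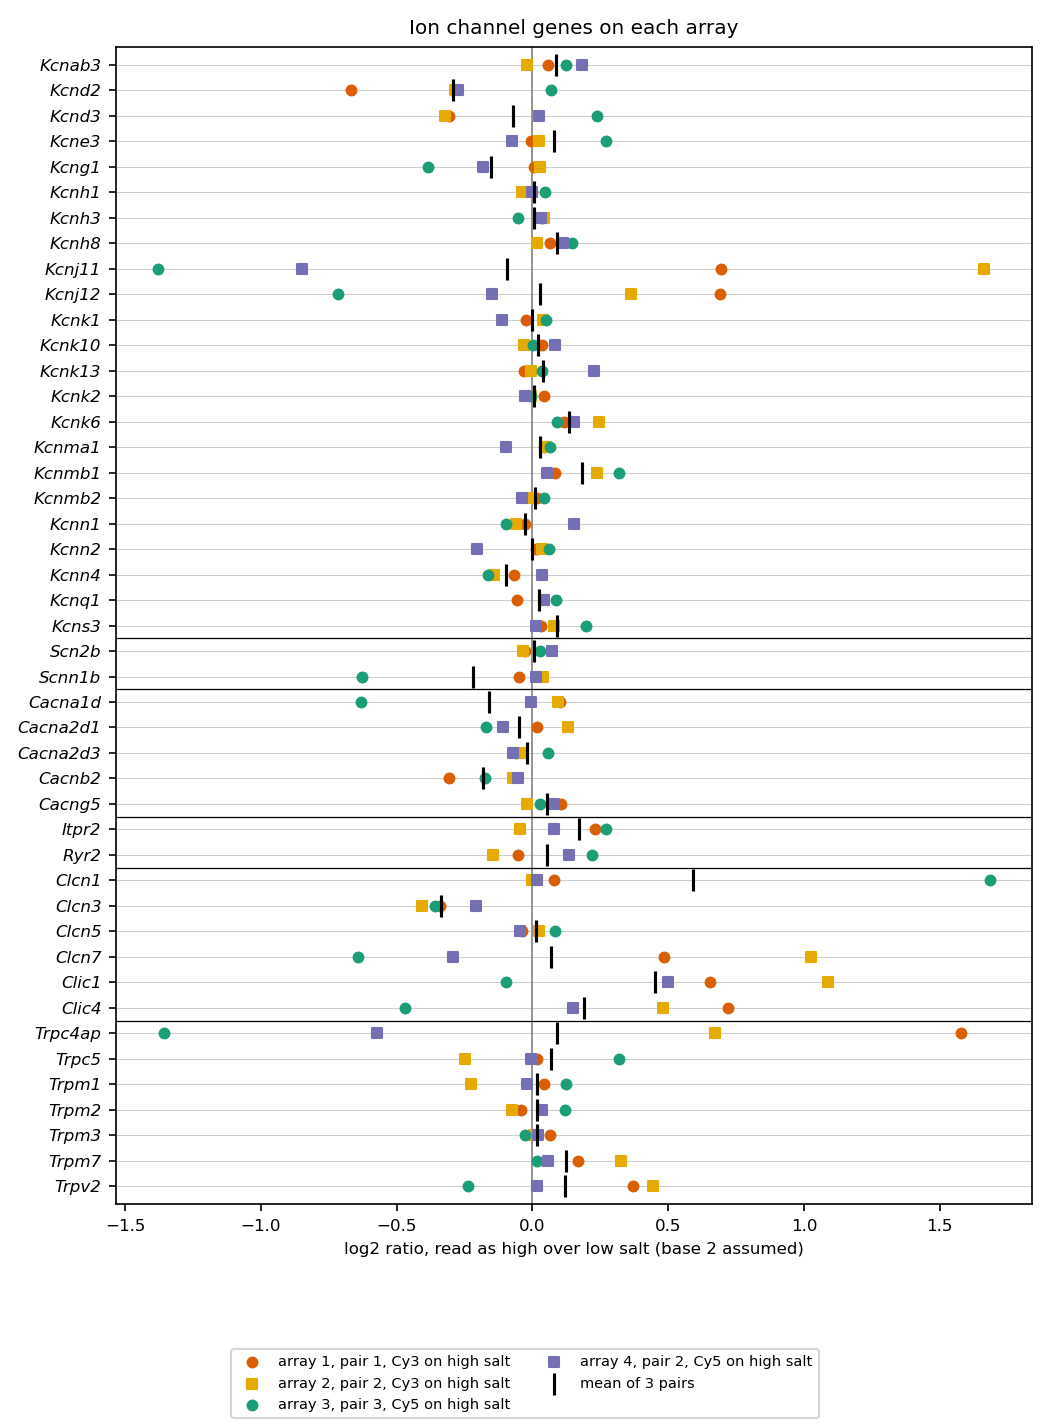
Log2 ratios (positive read as higher in high salt) of the channel genes on the 4 arrays, by family, with the mean of 3 pairs. Most potassium and TRP channel genes lie near 0, Clcn3 lies below 0 on all arrays, Clcn1 has 1 high array, and Kcnj11, Kcnj12, Clcn7 and Trpc4ap change sign with the dye.

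Set side by side, the 4 subgroups had medians of 0.048 (Na,K-ATPase, 3 genes), 0.011 (calcium ATPase, 5), 0.079 (V-ATPase, 12) and 0.019 (channels, 45). In pairs 1 to 3 the subgroup medians were -0.12, 0.10 and 0.16 for the Na,K-ATPase and -0.13, 0.0079 and -0.0093 for the calcium ATPases. They were 0.085, 0.018 and 0.0055 for the V-ATPase and 0.030, 0.016 and 0.035 for the channels. The pair medians of the calcium ATPases lay below every one of the channels, while any other 2 subgroups overlapped. In the turned reading the calcium ATPases were at 0.13, 0.074 and -0.0093 and the channels at -0.030, -0.011 and 0.035, so they overlapped. The difference between these subgroups was not tested. The order also changed with the reading, since with arrays 1 and 2 turned the medians were 0.088, 0.094, -0.0097 and 0.0077 in the same order of subgroups. The median range over the 4 arrays was 0.45 for the Na,K-ATPase, 0.39 for the calcium ATPases, 0.40 for the V-ATPase and 0.26 for the channels. Among channels it was 1.19 for the chloride genes and 0.20 for the potassium genes, so chloride genes varied more between arrays.

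**Figure D4:**
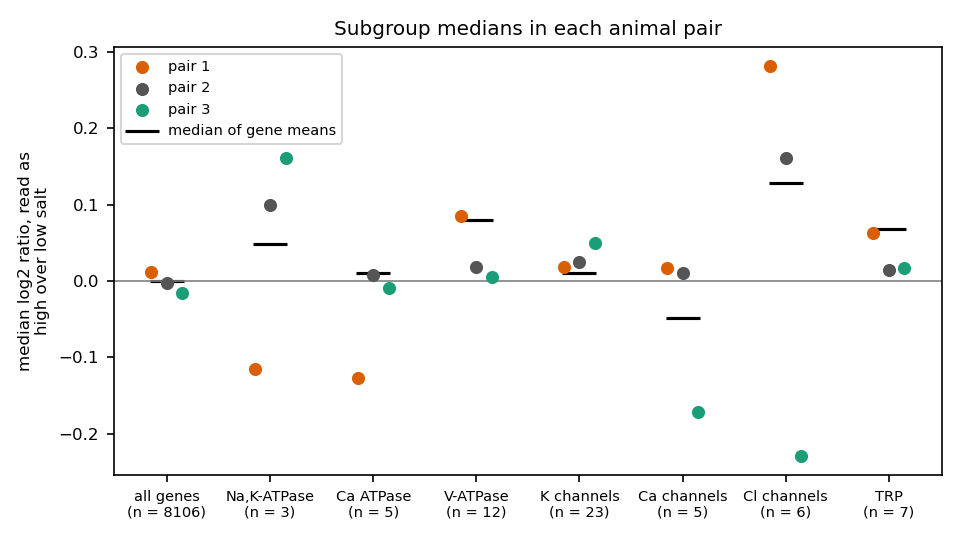
Median log2 ratio (vertical axis, read as high over low salt) over the genes of each subgroup or channel family in pairs 1, 2 and 3, with a bar for the median of the gene means. The Na,K-ATPase runs from -0.12 in pair 1 to 0.16 in pair 3, and the chloride genes run from 0.28 in pair 1 to -0.23 in pair 3.

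Several members changed sign with the dye orientation. In 5 members, all but Atp6v1b2 named here after their values were seen, the mean of arrays 1 and 2 was over 0.3 and that of arrays 3 and 4 under -0.3, a share of 7.69% against 5.90% of all genes. Kcnj11, the pore of the ATP-sensitive potassium channel, had log2 ratios of 0.69 and 1.66 on arrays 1 and 2 and -1.38 and -0.85 on arrays 3 and 4. Trpc4ap had 1.58 and 0.67 against -1.36 and -0.57. Clcn7 had 0.48 and 1.03 against -0.64 and -0.29. The same arrangement held in Kcnj12, the inward rectifier gene, at 0.69, 0.36, -0.72 and -0.15, and in Atp6v1b2. In each of these the arrays of pair 2, which hold the same hearts, had opposite signs.

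The 5 members with this arrangement had means between -0.093 for Kcnj11 and 0.11 for Atp6v1b2, with SDs between 0.62 and 1.47. With arrays 1 and 2 turned, the means were -1.11 for Kcnj11, -1.19 for Trpc4ap, -0.59 for Clcn7, -0.55 for Kcnj12 and -0.49 for Atp6v1b2. The adjusted p by limma was then 0.081 for Clcn7, 0.093 for Kcnj11, 0.101 for Trpc4ap, 0.119 for Kcnj12 and 0.179 for Atp6v1b2. When a dye term was added to the fit, it set pair 3 against pair 1, since pair 2 was averaged over both dyes. A difference between the mice of those pairs cannot be told apart from it. Limma called this term in 4 members (6.15%) at an adjusted p under 0.05, against 5.13% of all genes. These were Trpc4ap, Atp6v1b2, Kcnj12 and Clic4. For salt that fit called 0 members (0% of all genes), and 9 members (13.8%) had an unadjusted p under 0.05, against 14.7%. Of these, 5 were above 0 (7.93% of all genes) and 4 below it (6.72%). Whether the dye or salt gave these members their values cannot be told apart where the table's alignment is unknown.

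**Figure D5:**
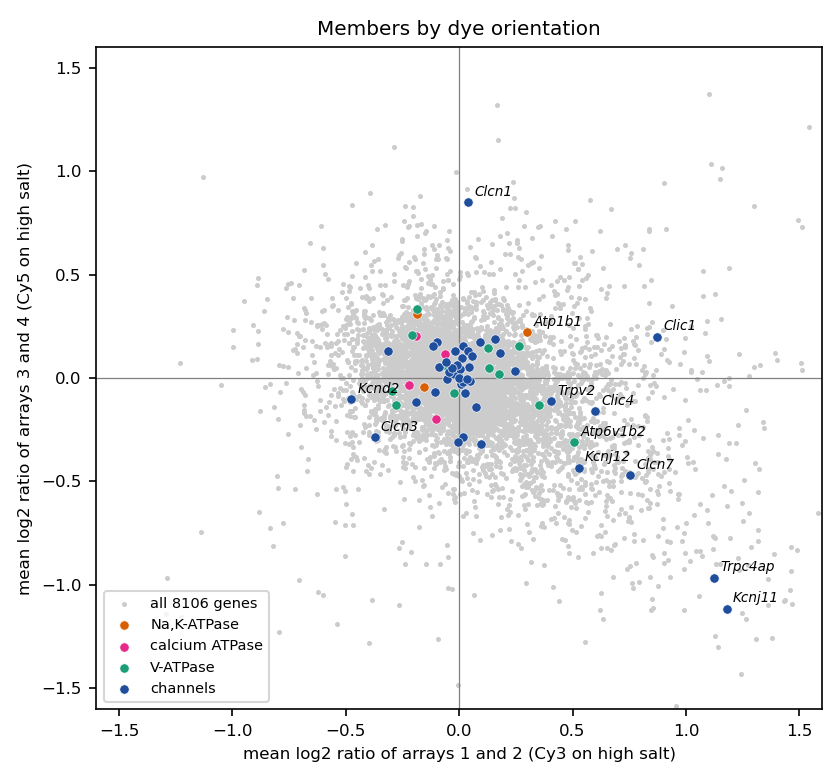
Mean log2 ratio of arrays 3 and 4 (vertical axis, Cy5 on high salt) against that of arrays 1 and 2 (horizontal axis, Cy3 on high salt) for all 8106 genes in grey and the 65 members in colour, with 31 genes outside the axes. Kcnj11, Trpc4ap, Clcn7, Kcnj12 and Atp6v1b2 lie at the lower right, with opposite signs, while Atp1b1 is positive and Clcn3 negative in both orientations.

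Where a gene had several clones, these were an internal check. Of 15 such members, the clone means had 1 sign in 8 and differed in sign in 7. The 7 were Atp6v0a4, Atp6v1a, Atp6v1b2, Cacna1d, Cacna2d3, Kcnh1 and Kcnq1. The clone means of Atp1b1, Atp2a2, Kcnd2 and Trpm7 shared a sign within each gene, but each gene had clones of mixed sign over the arrays. No Atp2a2 clone kept 1 sign on all 4 arrays, and its clones 3 and 4 had means of -0.0098 and -0.027. Of the 92 member clones with values, 15 were positive on all 4 arrays, against 6.65% of all clones, and 5 were negative on all 4, against 6.76%. The 15 include several clones of the same gene, as for Atp1b1 and Atp6v0a1, so they are not independent. At an unadjusted p under 0.05 by limma there were 5 member clones, against 5.21% of all clones. The test on single clones called 0 of 16471 clones (0%) at an adjusted p under 0.05 by limma.

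Genes that regulate pumps and channels or carry sodium and calcium otherwise were read from a list of 64, of which 35 had values. Of these, 15 had means above 0 and 20 below, with a median of -0.0077, and limma called 0. At an unadjusted p under 0.05 the list held 2 genes above 0 (5.71%, against 2.81% of all genes) and 1 below (2.86%, against 2.63%). Those above were Fxyd5 and Fkbp1a, and the gene below was Rrad. Fkbp1a was at 0.17 ± 0.053 and Rrad at -0.31 ± 0.18, with turned means of -0.039 and -0.11. Turned, the median of the list was -0.039, with 3 genes above (8.57%, against 6.97%) and 6 below (17.1%, against 13.8%) at that p. Slc8a1, the sodium-calcium exchanger of heart muscle, was at -0.020 ± 0.13 on the log2 scale (SD, n = 3 pairs). Nr3c2, the mineralocorticoid receptor, had 0.027 ± 0.042. Their turned means were 0.11 and 0.039. Sgk1, a kinase induced by corticosteroids that regulates ion channels, had -0.18, 0.24, 1.13 and 0.69 on arrays 1 to 4. Pair 1 was below and pairs 2 and 3 above 0, with a mean of 0.47 ± 0.65, or 0.51 turned. Fxyd5, a small partner of the Na,K-ATPase, had 0.52 ± 0.26, or -0.061 in the turned reading. Camk2d, the calmodulin kinase of heart muscle, was at 0.029 ± 0.096, or -0.036 turned. A list of other channels, gap junctions and P-type ATPases outside the naming rule also held Atp5a1 and Atp5b, of the mitochondrial ATP synthase. It gave 25 genes with values of 51 listed, 14 above and 11 below 0, with a median of 0.0081 and 0 called by limma. At an unadjusted p under 0.05, that list held 1 gene above 0 (4%, against 2.81% of all genes) and 4 below (16%, against 2.63%). The gene above was Lrrc8a, and those below were Gja1, Mcoln2, the mitochondrial channel gene Vdac1 and Atp5b. Turned, its median was -0.023, with 1 gene above (4%, against 6.97%) and 3 below (12%, against 13.8%) at that p.

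Cell type markers were read from the same fit beside the members. Of 10 fibroblast markers, 9 had values, and all 9 had means above 0, with a median of 0.43 and pair medians of 0.34, 0.59 and 0.58. At an unadjusted p under 0.05 by limma, 5 of the 9 (55.6%) lay above 0, against 2.81% of all genes, and 0 below it. The turned reading put 3 of the 9 above 0, with a median of -0.085. In it, 0 of the 9 had an unadjusted p under 0.05 by limma, against 20.8% of all genes. Of 20 cardiomyocyte markers, 5 had values, and these include the members Atp2a2 and Ryr2. Their median of 0.054 was the mean of Ryr2 itself, so it is no reference apart from the members. The markers that are not members were at 0.067 for Ttn, 0.35 for Nppb and -0.0074 for Actn2. The medians were 0.065 for endothelium (6 of 10 markers), 0.13 for smooth muscle and pericytes (5 of 10) and 0.16 for macrophages and leukocytes (3 of 13). They were -0.019 for blood (2 of 8), 0.25 for atrium (2 of 7), -0.063 for adipocytes (5 of 7) and -0.00078 for nerve and glia (3 of 9). Turned, the medians were 0.13 for cardiomyocytes, which was the turned mean of Atp2a2 itself, and -0.12 for endothelium. They were -0.16 for smooth muscle and pericytes, 0.16 for macrophages and leukocytes and 0.0070 for blood. They were then -0.34 for atrium, 0.061 for adipocytes and 0.012 for nerve and glia. Kcnmb1, the BK channel subunit of smooth muscle, was at 0.18 beside that cell type's marker median of 0.13, and at 0.048 beside -0.16 when turned. The 5 smooth muscle markers ran from -0.059 for Mylk, a myosin kinase, to 0.30 for Myh11, the smooth muscle myosin, 4 above 0 and 1 below. The part of cell composition in the members' values was not tested. Since the table holds ratios, no marker's level could be used to check the labelled tissue.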

How the data were processed

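Ventricle RNA of 6 mice, 3 per group, was compared on 4 cDNA arrays of 2 colours. For each feature the authors deposited a log ratio on every array, read as log2. The sources used here give neither its base and direction nor its background correction and normalization, and no intensities were used, so the number of arrays limits the precision. Of 17664 features, 17207 had values on every array and 457 had none. The 736 features at 23 unnamed positions that recur in all 32 print blocks were left out, which left 16471 clones. Names came from the platform annotation, where 12563 features had 1 symbol, 412 several and 4689 none. All 65 member gene IDs were found in RefSeq's table and 0 symbols needed updating. Clones of 1 symbol were averaged, giving 8106 genes. Arrays 2 and 4, the dye swap of pair 2, were averaged first. For each gene, limma 3.58.1 (R 4.3.3; lmFit and eBayes) tested whether the mean of the 3 pair values was 0, adjusted by Benjamini-Hochberg over all 8106 genes at 0.05, in a script tested on simulated data. The mean over pairs cancels a gene's dye effect, but its spread keeps it.

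Alternatives turned arrays 1 and 2, took pair 2 from 1 array, scaled or centred the arrays, added a dye term, took clone medians, fitted clones singly, fitted all features or left out each pair. Leaving Trpc4ap out of the channels was chosen after seeing the data. By rule, genes named were all Na,K-ATPase, calcium ATPase and release channel members, and, in the V-ATPase and each channel family, those with 1 sign on all arrays, the smallest unadjusted p (4 in the V-ATPase, 2 per family) or clones that differ in sign. Others named were chosen after their values were seen. The members and lists were chosen with earlier results of these data known. Promoters are RefSeq's, of GRCm38.p6.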

Additional observations from a re-analysis of the deposited data

Results flagged for a closer look

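Among the 65 members, 6 had 1 array far from the other three, with a gap past the critical value of Dixon's test. The same held for 4.65% of all 8106 genes, beside 9.23% of members, and chance alone marks about 1 in 20 groups of independent samples, which arrays 2 and 4 are not. In the turned reading it held for 6 members and 6.16% of all genes. Array 3 was the distant one in 4 of the 6, with log2 ratios of 1.69 for Clcn1, -0.63 for Cacna1d, -0.63 for Scnn1b and -0.055 for Kcnh3, a potassium channel gene that otherwise lay between 0.030 and 0.043. Array 1 was distant for Atp2a2, at -0.40, where its other arrays lay between -0.058 and -0.0093. Array 4 was distant for Kcnma1, at -0.096, against 0.044 to 0.065 on the others. In Kcnma1 array 4 and array 2 hold the same 2 hearts.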

How the results depend on the processing

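Under every alternative run, limma called 0 members at an adjusted p under 0.05. The number of members at an unadjusted p under 0.05, 2 higher and 2 lower, became 4 and 9 with arrays 1 and 2 turned and 5 and 4 with a dye term. It was 1 on the lower side with pair 2 from array 4 alone. Leaving out each pair gave 0 to 7 higher and 1 to 3 lower. Without pair 1 or pair 2, 0 were higher and 1 lower (Clcn3), and without pair 3, 7 were higher. Atp1b1 and Atp6v0a1 thus left that group without pair 1 or pair 2, while Clcn3 stayed in it without any 1 pair and with either array of pair 2. Members of 1 sign were 9 positive and 5 negative, with 9 negative when arrays 1 and 2 were turned. They numbered 15 positive with pair 2 from array 4 alone and 8 negative with array 2 alone. Leaving out each pair gave 11 to 20 positive and 7 to 10 negative. With pair 2 from 1 array or a pair left out, fewer arrays must share a sign, so these counts cannot fall. With arrays 1 and 2 turned, the subgroup medians became 0.094 for the calcium ATPases, -0.0097 for the V-ATPase and 0.0077 for the channels. Leaving out each pair gave -0.091 to 0.0041 for the calcium ATPases, 0.026 to 0.095 for the V-ATPase and 0.0064 to 0.021 for the channels. The Na,K-ATPase median of 0.048 ran from -0.0078 without pair 3 to 0.13 without pair 1, and was -0.041 with pair 2 from array 2 alone and 0.17 from array 4 alone.

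With arrays 1 and 2 turned, the means of 10 genes of 1 sign on all arrays took the other sign. In such genes turning sets arrays of like sign against each other, which draws the mean towards 0. The turned means were -0.060 for Atp1b1 (-0.16 and -0.081 for its clones 2 and 4), 0.13 for Atp2a2 and -0.058 for Atp6v0a1. They were 0.052 for Atp6v0b, -0.052 for Atp6v0d1, 0.15 for Atp6v1e1 and 0.047 for Cacnb2. Clcn3 was at 0.026, Kcnk6 at -0.023 and Trpm7 at -0.095. Each of these 10 gene means was smaller in size than its SD over pairs, which was 0.22 for Atp1b1 and 0.35 for Clcn3. Of the 34 members named by rule, 17 changed sign so, 5 with pair 2 from array 2 alone, and 3, 5 and 9 without pairs 1, 2 and 3. Scaling, centring, a dye term, clone medians and pair 2 from array 4 alone changed 0 of these 34 signs. Over all 65 members, 29 changed sign when turned, 11 with pair 2 from array 2 alone, 6 from array 4 alone, 1 with scaling, and 13, 11 and 21 without pairs 1, 2 and 3. Leaving Trpc4ap out gave a channel median of 0.018 and moved the TRP median from 0.069 to 0.044. The causes of these shifts were not tested beyond each alternative's own construction. The pairing of 1 high-salt with 1 low-salt mouse is part of every ratio, so no further replicate block was fitted.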
